A study of Mus musculus with 12 samples.

Results

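The testes of F1 mice that had been given virus for overexpression of the long non-coding RNA labelled lncRNA8276 were compared with testes of the group labelled 5NC, taken as its control. The comparison uses 6 of the 12 RNA sequencing libraries of the series, chosen by their labels: 3 of treatment 8276OV, called overexpression, and 3 of treatment 5NC, called control_5NC. The other 6 libraries, 3 of a knockdown group and 3 of its control 3NC, called control_3NC, served to estimate the spread between replicates and to show where the levels of a gene lay outside the comparison. All animals are labelled strain IRC mouse, and the material is total RNA of F1 mouse testes. The labels used here give no age, virus, promoter, dose or time, and whether replicate libraries are separate animals is not stated, so a p-value here measures the spread between the deposited samples, part of which may be technical. The transcript of lncRNA8276 itself was not analysed here, and the overexpression label was therefore not checked against its target.

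The testis makes sperm in an ordered series. Spermatogonia divide by mitosis, spermatocytes break and exchange their DNA in meiosis and then divide, and the resulting round spermatids build an acrosome and a tail while their chromatin is packed with transition proteins and protamines. Each step has its own transcripts, which makes bulk testis RNA a mixture of stages, and in such RNA fewer cells of a type and less RNA per cell cannot be told apart. Sertoli, Leydig, peritubular and blood cells contribute the remainder.

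The 6 libraries held 13485479 to 15771655 estimated counts and carried the transcripts of testis. Ddx4, a germ cell RNA helicase, lay between 600.5 and 776.2 CPM, and the protamine gene Prm1 between 2463 and 3373 CPM. CPM is the usual depth-scaled unit, in which a gene's counts are given relative to the TMM-scaled total of the library. Overexpression 2, control_5NC 2 and control_5NC 3, called the low-total libraries, held 13485479 to 13847277 counts and the other 9 libraries of the series 15252025 to 15771655. In the low-total libraries Sycp3, a protein of the meiotic chromosome axis, was at 262.5 to 296.8 CPM, against 187.8 to 202.2 CPM in the other 3, and the transition protein gene Tnp2 at 2248 to 2698 CPM against 3530 to 3911 CPM. Within these 6 libraries, total and germ cell stage markers therefore moved together, with 2 such libraries in the control and 1 in the overexpression group. Outside them this did not hold throughout. Control_3NC 3, with 15511362 counts, had Tnp2 at 2250 CPM and Sycp3 at 236.7 CPM. Control_3NC 2, with 15252025 counts, had Tnp2 at 2141 CPM but Sycp3 at 203.4 CPM. Crisp1, an epididymal secretory protein, was at 240 and 98.9 CPM in control_5NC 2 and 3 and at 0.995 to 37.5 CPM in the other 4. Control_3NC 2, outside the comparison, stood apart with Ptprc, the leukocyte antigen CD45, at 95.5 CPM against at most 3.89 CPM in the rest, and it enters the estimate of the spread.

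Of 16395 genes tested, 78 (0.476%) differed between overexpression and control_5NC at an adjusted p under 0.05 in edgeR's quasi-likelihood test with Benjamini-Hochberg adjustment. They comprised 42 genes that rose (0.256% of those tested) and 36 that fell (0.220%). At an unadjusted p under 0.05 there were 2506 genes (15.3%), 1459 higher (8.90%) and 1047 lower (6.39%). The rises were the larger changes, with a median log2 fold change of 1.32 and 25 of 42 at 2-fold or more, whereas the falls had a median of -0.57 and 4 of 36 at 2-fold or more. The overexpression and control_5NC ranges were separate for all 78 genes, as they were for 22.0% of all tested genes. The median log2 fold change over all tested genes was -0.01, with quartiles of -0.17 and 0.17.

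**Figure D1:**
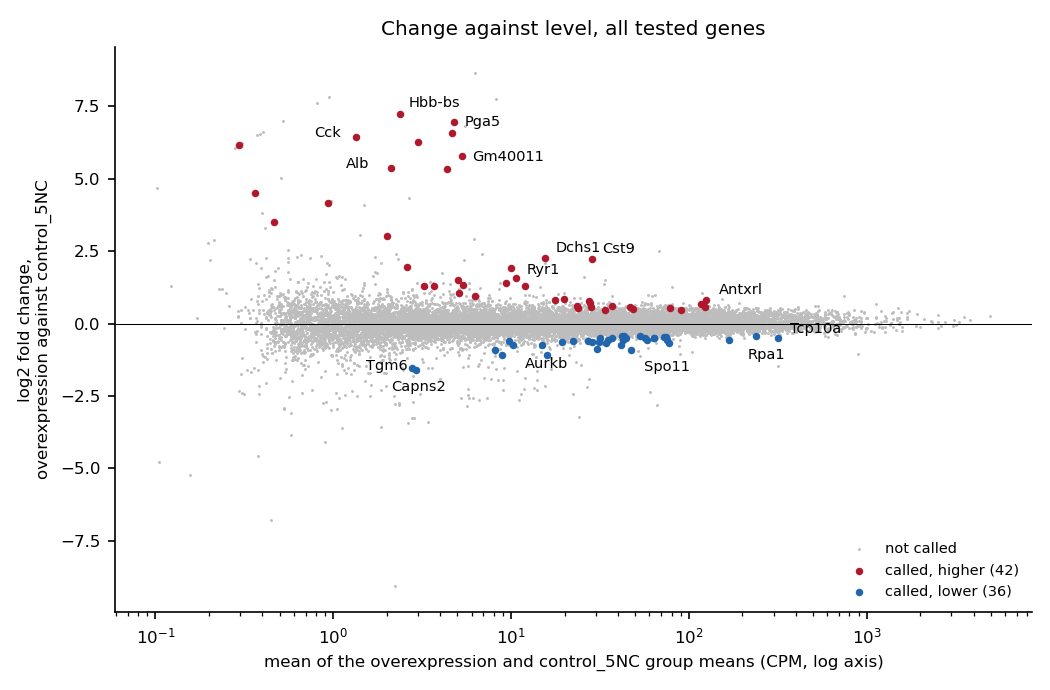
Log2 fold change of overexpression against control_5NC (vertical axis) by the mean level of both groups in CPM (horizontal log axis) for the 16395 tested genes, each point a gene. The 42 called rises (red) run from the lowest levels up to about the level of Antxrl and include all called changes beyond 4-fold. The 36 called falls (blue) reach from Rpa1 at -0.42 to Tgm6 and Capns2 at the lower left.

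The calls depended on which libraries entered the fit. Without control_3NC 2 the same fit called 521 of 16537 genes (3.15%), the 78 among them, and with control_3NC in place of control_5NC it called 1 gene (0.00610%), Alb. When each of the 6 libraries was left out in turn, only Gm40011, A530064D06Rik, Alb, Dchs1 and Spo11 passed in all 6 fits, 53 of the 78 passed only in the fit without overexpression 2 and 8 passed in none (Ankrd27, Chdh, Cst9, LOC108168651, Map3k20, Poln, Tgm6 and Trappc12).

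Among the genes that fell, those of cell division are described first. Mitosis and the meiotic divisions are driven by cyclin-dependent kinases, and chromosomes are then held, checked and separated by kinetochores, the spindle checkpoint and the chromosomal passenger complex. Cdk1, the kinase that starts division, was at 49.2, 48.4 and 48.6 CPM in control_5NC and at 37.5, 34.9 and 35.1 CPM in overexpression. All 3 overexpression libraries lay below all 3 controls, and the log2 fold change was -0.44 ± 0.08 (SE) with an adjusted p of 0.0353. Aurkb, the kinase of the chromosomal passenger complex, was at 19.6, 17.1 and 19 CPM in the controls and 9.72, 12.4 and 11.5 CPM in overexpression, a log2 fold change of -0.73 ± 0.12 (adjusted p = 0.0301). Its groups were again separate. Control_3NC (36.6 to 38.3 CPM for Cdk1 and 13.1 to 13.6 CPM for Aurkb) lay below control_5NC too. Knockdown did as well, at 30.6 to 34.2 CPM for Cdk1 and 11.5 to 14.2 CPM for Aurkb. Arhgef39, a guanine nucleotide exchange factor, went from 12.9, 12.4 and 13.2 CPM to 7.56, 8.66 and 6.83 CPM, a log2 fold change of -0.74 ± 0.14 (adjusted p = 0.0484); it was put on the list with its earlier result known.

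These 3 were the called members of a list of 51 cell division genes, all of them tested, where 0.220% of all tested genes were called lower. Of the 51, 47 had a log2 fold change below 0, 21 were lower at an unadjusted p under 0.05 (6.39% over all tested genes) and 0 were higher (8.90%), and the list's median was -0.20, against -0.01 over all tested genes. By role, all 6 centromere and kinetochore genes lay below 0 with a median of -0.36, as did all 5 genes of the passenger complex (median -0.23) and all 9 of the spindle checkpoint and anaphase (median -0.20). Cyclins and their kinases had a median of -0.15 with 10 of 11 below 0, and the regulators of Cdk1 activity one of -0.05 with 2 of 4 below 0. The kinetochore proteins Ndc80 (log2 fold change -0.49 ± 0.11, adjusted p = 0.0685) and Spc25 (-0.59 ± 0.14, adjusted p = 0.0811) and the germ line cyclin Ccna1 (-0.37 ± 0.08, adjusted p = 0.0671) did not pass the test here. They passed in the fit without control_3NC 2, where 7 of the 51 were lower against a background of 1.01% of genes, with adjusted p of 0.0351, 0.0399 and 0.0266.

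Summed over the 51 genes, the level was 3931, 4046 and 4053 CPM in control_5NC and 3441, 3632 and 3420 CPM in overexpression. The control_3NC libraries (3661, 3501 and 3902 CPM) and the knockdown libraries (3589, 3515 and 3511 CPM) all lay below every control_5NC library too. The list's median was -0.17 when only the low-total libraries were compared and -0.21 when only the remaining ones were, with 44 and 45 of the 51 genes below 0. With a term for the low-total libraries in the fit the median was -0.18, with 46 of 51 below 0 and 2 called (Aurkb and Cdk1), and without those libraries it was -0.21 with 0 called. The number of the 51 called lower ran from 0 to 11 over the fits tried. It was 0 in 5 of the 6 fits that left out 1 library of the comparison. The fit without overexpression 2 called 6 of them, and 217 genes in all. DESeq2 called 11 of them, and 742 genes in all. The reported fit called 78 genes in all.

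Promoter sequences of this list are shown because cell division genes are known for a shared arrangement of short elements. The 250 bases before the start of Cdk1, which fell, and of Arhgef39, which also fell, are given 5′ to 3′ on the gene's own strand, from RefSeq on GRCm38.p6. Capitals mark matches on either strand to CCAAT, the letters bound by NF-Y (read as ATTGG on the opposite strand), and to TTTGAA, the letters of the cell cycle homology region bound by the MuvB complexes.
Cdk1, chr10:69352913-69353162, minus strand: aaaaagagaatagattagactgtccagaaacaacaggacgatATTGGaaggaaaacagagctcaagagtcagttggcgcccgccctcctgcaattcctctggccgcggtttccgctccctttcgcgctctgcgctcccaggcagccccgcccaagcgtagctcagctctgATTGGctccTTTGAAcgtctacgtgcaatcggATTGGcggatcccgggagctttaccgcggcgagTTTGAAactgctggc
Arhgef39, chr4:43508748-43508997, minus strand: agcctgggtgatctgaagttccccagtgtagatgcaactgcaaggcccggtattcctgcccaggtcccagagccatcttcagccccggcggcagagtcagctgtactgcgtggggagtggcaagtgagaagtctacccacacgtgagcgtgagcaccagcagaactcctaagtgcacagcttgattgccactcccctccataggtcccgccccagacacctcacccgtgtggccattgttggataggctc

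The Cdk1 window held 3 matches to CCAAT and 2 to TTTGAA, and the Arhgef39 window held 0 of either. The shares that follow were counted in longer windows that also run past the start, and a gene counts when any of its windows matches. Of the 43 list members with a window, 31 (72.1%) held CCAAT and 25 (58.1%) held TTTGAA. Over the 12980 tested genes with a window the shares were 42.8% and 15.7%, and over all 27025 genes with a window 41.1% and 20.2%. TGACGTCA, the letters of the cyclic AMP response element, was in 2 of the 43 (4.65%) and in 3.14% of tested genes. A match is a description of the letters and not of a bound site. The promoters of Aurkb and Spo11 were not analysed here.

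**Figure D2:**
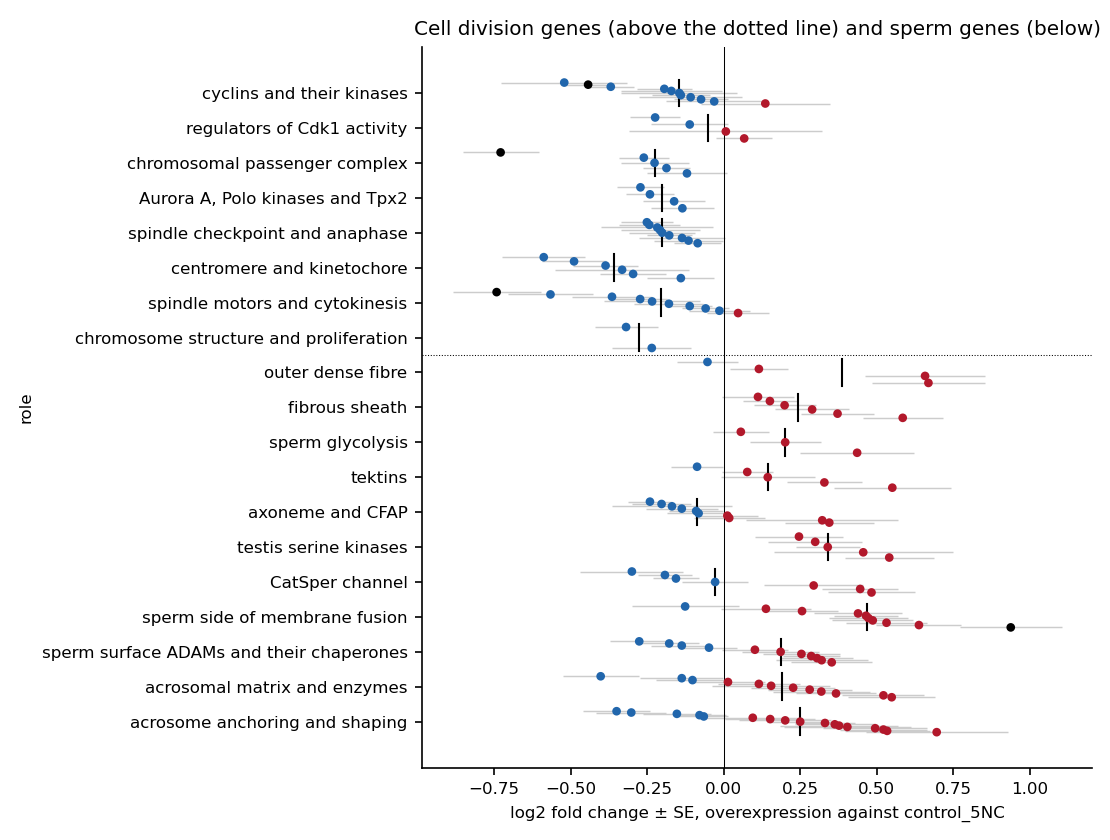
Log2 fold change ± SE of overexpression against control_5NC (horizontal axis) for single genes, grouped by role (vertical axis), with a black bar at each role's median. Black points are called genes, blue points lie below 0 and red points above. All kinetochore, passenger complex and checkpoint genes lie left of 0, the sperm side of membrane fusion has 9 of 10 genes right of 0, and axoneme and CatSper genes lie on both sides.

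Spo11, which makes the double-strand breaks that start meiotic recombination, had the smallest adjusted p among the falls. It was at 57.2, 62.5 and 66.4 CPM in control_5NC and at 30, 34.7 and 34.2 CPM in overexpression with separate groups. The log2 fold change was -0.91 ± 0.10 (adjusted p = 0.00327). Control_3NC (43.3 to 46.5 CPM) and knockdown (31.5 to 38.6 CPM) libraries both lay below the control_5NC libraries too. Rpa1, the large subunit of the complex that coats single-stranded DNA in replication and recombination, was at 260, 274 and 283 CPM in the controls and 206, 208 and 198 CPM in overexpression, a log2 fold change of -0.42 ± 0.07 (adjusted p = 0.0248). The 2 groups were separate, and the control_3NC libraries (204 to 212 CPM) lay with overexpression. Of 29 tested genes of meiotic break formation and recombination, Spo11 was the 1 called, 1 further gene was higher at an unadjusted p under 0.05, and the median was -0.08. The strand exchange protein Dmc1 had a log2 fold change of -0.03 ± 0.12 (adjusted p = 0.951) and Prdm9, which marks the break sites, one of 0.22 ± 0.16 (adjusted p = 0.579). Among 24 genes of the meiotic axis and synapsis 0 were called. At an unadjusted p under 0.05, 3 were higher and 0 lower (8.90% and 6.39% over all tested genes). The central element gene Syce2 was nearest, with 98.4, 123 and 104 CPM in the controls and 183, 143 and 182 CPM in overexpression (log2 fold change 0.64 ± 0.13, adjusted p = 0.0599).

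Further falls included 3 genes of DNA-binding proteins, Cep250 and Tcp10a. Zfp110, a zinc finger protein, was the most abundant of the zinc finger genes called, at 188, 202 and 211 CPM in the controls and 133, 148 and 130 CPM in overexpression (log2 fold change -0.55 ± 0.08, adjusted p = 0.0184). Zscan22, whose gene lies 47.2 kb away on chromosome 7, fell by a like amount, from 35.2, 30.2 and 31.9 CPM to 20.6, 22.2 and 22.1 CPM (-0.58 ± 0.11, adjusted p = 0.0449). Rfx8, of the RFX family of DNA-binding proteins, fell from 91.9, 84.6 and 93.3 CPM to 61.5, 63.5 and 59.4 CPM (-0.55 ± 0.07, adjusted p = 0.0113). Each of the 3 had separate groups, and the control_3NC and knockdown libraries all lay below control_5NC as well. Zfp110 was at 144 to 158 CPM in control_3NC and 119 to 136 CPM in knockdown. Cep250, a protein that links the centrioles of the centrosome, fell from 38.1, 34.2 and 31.9 CPM to 23.1, 19.7 and 23.9 CPM (-0.65 ± 0.11, adjusted p = 0.0257). Tcp10a, a testis gene of the t-complex, was the most abundant gene called in either direction. It stood at 344, 384 and 377 CPM in the controls and 257, 269 and 263 CPM in overexpression (-0.48 ± 0.07, adjusted p = 0.0168), and it has shared counts, meaning fractions in the deposited estimates such as arise when reads are split between similar genes.

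Several genes of redox and metabolic enzymes were among the calls. Msrb3, which repairs oxidised methionine, fell from 92.4, 90.6 and 102 CPM to 58.7, 67 and 55.8 CPM (-0.65 ± 0.10, adjusted p = 0.0184). Marc2, a molybdenum enzyme of the mitochondrial outer membrane, fell from 53.9, 51.8 and 50.8 CPM to 29.4, 31.7 and 31.8 CPM (-0.75 ± 0.11, adjusted p = 0.0168). Its control_3NC libraries were at 32.3 to 36 CPM and its knockdown libraries at 22.3 to 30 CPM, all below control_5NC. Nnt, the mitochondrial transhydrogenase that makes NADPH, fell from 84.9, 82.2 and 91.6 CPM to 58.6, 67.6 and 60.1 CPM (-0.47 ± 0.09, adjusted p = 0.0461). Gss, glutathione synthetase, went the other way. It rose from 7.35, 6.28 and 7.05 CPM to 17, 16.3 and 17.7 CPM (1.30 ± 0.22, adjusted p = 0.0278), and the control_3NC libraries reached from 7.64 to 14 CPM. Nnt and the acyl-CoA thioesterase gene Acot10, which rose by 0.77 ± 0.14 (adjusted p = 0.0353), were chosen for mention after their values were seen, and no list of redox enzymes was tested. Of 29 tested genes of oxidative phosphorylation, 0 were called, 1 was lower at an unadjusted p under 0.05 and the median was 0.00.

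The largest falls by fold were of less abundant genes. Tgm6, a transglutaminase, was at 5.28, 3.39 and 4.6 CPM in control_5NC and 2.17, 0.955 and 1.26 CPM in overexpression (log2 fold change -1.59 ± 0.30, adjusted p = 0.0461). Capns2, a small calpain subunit, was at 4.4, 3.95 and 4.03 CPM against 1.51, 1.32 and 1.39 CPM (-1.55 ± 0.20, adjusted p = 0.0113). For both, control_3NC and knockdown libraries were at 1.06 to 1.66 CPM, so the control_5NC libraries alone were high. Tagap, a GTPase activator of T cells that has shared counts here, had a log2 fold change of -1.10 ± 0.18 (adjusted p = 0.0277) and Sh2d7, an SH2 domain protein, one of -1.09 ± 0.17 (adjusted p = 0.0194). Bcas1 (-0.88 ± 0.12, adjusted p = 0.0113), Tuft1 (-0.65 ± 0.09, adjusted p = 0.0168), Spdye4a of the Speedy family of kinase activators (-0.64 ± 0.12, adjusted p = 0.0449, shared counts), Kbtbd11 (-0.62 ± 0.10, adjusted p = 0.0184) and Gm38529 (-0.92 ± 0.15, adjusted p = 0.0248) complete the 15 largest falls.

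Among 98 tested genes of sperm-egg fusion, the acrosome and the tail, 1 rose. Tmem95, a sperm membrane protein needed for fusion with the egg, was at 4.02, 4.87 and 3.96 CPM in control_5NC and 8.28, 7.12 and 9.22 CPM in overexpression (log2 fold change 0.94 ± 0.17, adjusted p = 0.0353). Its 3 overexpression libraries lay above all 9 other libraries of the series, which reached 6.93 CPM. Of the 21 tested genes of sperm-egg fusion 16 had a log2 fold change above 0 (48% of all tested genes did), 11 were higher and 1 lower at an unadjusted p under 0.05 (8.90% and 6.39% over all tested genes), and the median was 0.29. Within it, 9 of 10 genes of the sperm side of membrane fusion lay above 0 with a median of 0.47. Izumo1, the sperm ligand of the egg receptor Juno, was at 57.1, 56.8 and 63.2 CPM in the controls and 82.8, 75.5 and 87.4 CPM in overexpression (0.47 ± 0.13, adjusted p = 0.117). Dcst1, a membrane protein of the same step, was at 62.5, 53.4 and 56.2 CPM against 103, 71.7 and 92.6 CPM (0.64 ± 0.14, adjusted p = 0.0709). The groups of both genes were separate without passing the test. Of the 11 genes of sperm surface ADAMs and their chaperones 7 lay above 0, with a median of 0.19 and 0 called. At an unadjusted p under 0.05, 3 were higher and 1 lower. Adam2 (log2 fold change -0.18 ± 0.10) and Adam3 (-0.05 ± 0.09) were among the 4 below 0.

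The acrosome and tail counts are to be read against the same shares over all tested genes. Of 29 acrosome genes 21 lay above 0 (median 0.23), 10 were higher and 3 lower at an unadjusted p under 0.05, and 0 were called. Acrv1, an acrosomal matrix protein, was at 140, 135 and 137 CPM in the controls and 206, 174 and 210 CPM in overexpression (0.52 ± 0.13, adjusted p = 0.0993). Of 48 tail genes 36 lay above 0 (median 0.22), 19 were higher and 1 lower at an unadjusted p under 0.05, and 0 were called. The outer dense fibre protein Odf1 was at 1050, 732 and 817 CPM against 1570, 1030 and 1530 CPM (0.67 ± 0.19, adjusted p = 0.122), and its lowest overexpression library, overexpression 2, lay below control_5NC 1. Cabyr, of the fibrous sheath, was at 355, 312 and 315 CPM against 514, 424 and 536 CPM (0.59 ± 0.13, adjusted p = 0.0762). By role the medians were 0.39 for the outer dense fibre, 0.34 for testis serine kinases (5 of 5 above 0), 0.24 for the fibrous sheath (6 of 6), -0.09 for the axoneme and -0.03 for the CatSper calcium channel. Genes of chromatin condensation, which act in the same cells, had a median of 0.11 with 1 of 18 higher and 2 lower at an unadjusted p under 0.05. Tail sums were 26720 to 28850 CPM in control_5NC and 29200 to 33750 CPM in overexpression. Knockdown held 29820 to 31320 CPM and control_3NC 32130, 26120 and 32040 CPM. Acrosome sums were 4454 to 4597 CPM in control_5NC and 4634 to 5278 CPM in overexpression. Knockdown was at 4883 to 5058 CPM and control_3NC at 4915, 4064 and 5369 CPM. For both lists and for fusion, all knockdown libraries and control_3NC 1 and 3 lay above control_5NC. Control_3NC 2 lay below it.

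Without control_3NC 2, 7 fusion, 4 acrosome and 8 tail genes were called higher, against a background of 2.14% of genes. In 5 of the 6 fits that left out 1 library of the comparison, 0 genes of the 3 lists were called. Without overexpression 2 there were 3, 2 and 5, with 217 genes called in all. Tmem95 itself had an adjusted p of 0.0637 with a term for the low-total libraries. The Tnp2 and Sycp3 differences named above run beside these lists: the medians were 0.16 (fusion), 0.16 (acrosome) and 0.10 (tail) among the low-total libraries, and 0.34, 0.25 and 0.25 among the remaining ones. With a term for the low-total libraries in the fit they were 0.26, 0.20 and 0.18 with 0 called in each list, and without those libraries 0.34, 0.26 and 0.25, again with 0 called. The part of germ cell stage in these values was not tested.

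Regulators that rose among the abundant genes were modest in size. Ell2, an elongation factor for RNA polymerase II, was at 97.7, 97.3 and 103 CPM in control_5NC and 148, 138 and 156 CPM in overexpression (0.57 ± 0.08, adjusted p = 0.0164). Pim1, a serine/threonine kinase, was at 65, 63.8 and 63.3 CPM against 103, 77.7 and 97.7 CPM (0.54 ± 0.11, adjusted p = 0.0497), and Rbms1, an RNA-binding protein, at 73.7, 74.5 and 76.6 CPM against 111, 97.1 and 106 CPM (0.48 ± 0.09, adjusted p = 0.0353). In all 3 genes the control_5NC libraries agreed closely and overexpression 2 was the lowest of its group. Spata31d1d, of a spermatogenesis-associated family, was at 97.2, 82.9 and 88.5 CPM against 162, 120 and 151 CPM (0.69 ± 0.13, adjusted p = 0.0461). Of 20 spermatid transcription regulators 0 were called, and the median was 0.01. At an unadjusted p under 0.05, 5 were higher and 1 lower (8.90% and 6.39% over all tested genes). The nearest, Creb3l4, stood at 210, 185 and 201 CPM against 304, 257 and 310 CPM (0.55 ± 0.12, adjusted p = 0.0685).

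**Figure D3:**
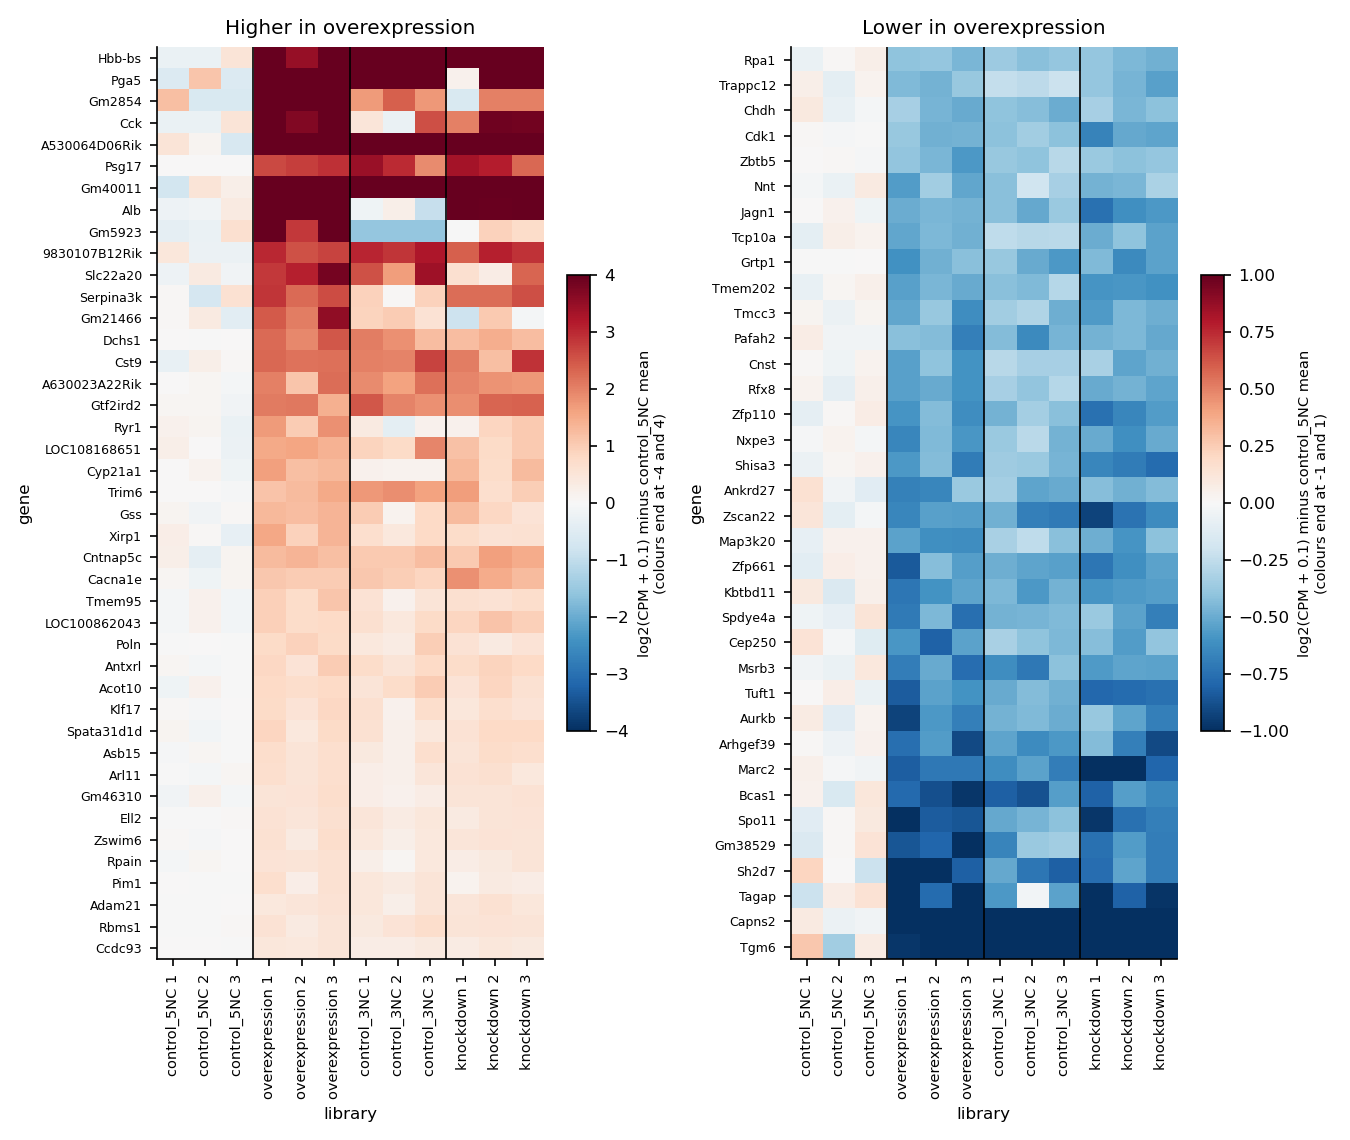
Log2(CPM + 0.1) minus the control_5NC mean (colour; the scale ends at -4 and 4 on the left and at -1 and 1 on the right) for the 42 genes that rose and the 36 that fell (rows) in all 12 libraries (columns). In most rows the control_3NC and knockdown libraries share the colour of overexpression, and Gm2854, Gm5923 and Gm21466 are among the exceptions.

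The plot of called genes by library shows where the other 6 libraries lay. For 65 of the 78 called genes (30 higher and 35 lower), all 6 control_3NC and knockdown libraries lay beyond the control_5NC range on the overexpression side, which held for 8% of all tested genes. For these genes the control_5NC libraries are the ones apart, and a difference of the overexpression group cannot be told apart from a difference of the control_5NC group. For 7 called genes the overexpression libraries lay apart from all 9 others, against 0.689% of tested genes. These were Tmem95, Xirp1, Gm2854, Gm5923 and Gm21466 on the higher side and Sh2d7 and Gm38529 on the lower. Called genes were picked for a gap between overexpression and control_5NC, which favours both patterns. The shares over all tested genes are therefore not a like background for either count.

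Gm2854, Gm5923 and Gm21466 are predicted genes near one another on the X chromosome, all with shared counts, that were higher in overexpression than in any other library. Gm2854 was at 0.251, 0 and 0 CPM in control_5NC and 7.69, 3.74 and 16.4 CPM in overexpression, which is 104 times as many counts summed over the group (95% interval 40.4 to 384, counting error only; adjusted p = 0.0257). Gm5923 was at 0.126, 0.141 and 0.36 CPM against 9.66, 1.98 and 14 CPM (ratio 42.8, 22.3 to 94.4; adjusted p = 0.0277). Gm21466 was at 0.44, 0.565 and 0.288 CPM against 2.76, 2.06 and 5.9 CPM (ratio 8.38, 5.19 to 14.3; adjusted p = 0.0353). No control_3NC or knockdown library passed 0.972 CPM in any of the 3, and in each gene overexpression 3 was highest and overexpression 2 lowest. With limma-voom their adjusted p was 0.0858, 0.122 and 0.0587, with a term for the low-total libraries 0.0228, 0.0502 and 0.0742, and DESeq2 gave them none because of low counts. Their genes start at chrX:33398517, 32158701 and 32437174 (GRCm38.p6), and since reads may be split between similar copies they may not be 3 independent results.

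Another set was near 0 in control_5NC alone. Gm40011, a predicted gene at chr2:173082780-173138200, had the smallest adjusted p of all, at 0.0628, 0.282 and 0.216 CPM in control_5NC and 11.8, 10.7 and 8.75 CPM in overexpression. The ratio of summed counts was 57.3 (28.9 to 134; adjusted p = 2.77e-06). Control_3NC at 9.58 to 11.2 CPM and knockdown at 7.79 to 9.98 CPM had the level of overexpression. A530064D06Rik, at chr17:48151896-48167257 and with shared counts, was at 0.126, 0.0706 and 0 CPM in control_5NC against 5.52, 4.77 and 7.43 CPM in overexpression (ratio 87.1, 29.5 to 425; adjusted p = 3.32e-05), and between 4.46 and 6.8 CPM in the 6 other libraries. Its neighbour 9830107B12Rik, 5.59 kb away, had 1 count in the 3 controls together and 0.854, 0.587 and 0.663 CPM in overexpression (ratio 31.0, 5.17 to 1270; adjusted p = 0.0184), with 0.511 to 1.01 CPM elsewhere. Psg17, a pregnancy-specific glycoprotein, had 0 counts in control_5NC and 26 in overexpression, at least 8.68-fold higher when 3 counts over the control group are taken as the floor (adjusted p = 0.0449).

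Among the beta globin genes Hbb-bs rose and no other passed the test. Hbb-bs and Hbb-bt are the genes of one beta globin haplotype of laboratory mice and Hbb-b1 and Hbb-b2 those of the other. Hbb-bs was at 0, 0 and 0.0719 CPM in control_5NC and 3.35, 1.25 and 9.55 CPM in overexpression (ratio 212, 37.7 to 8430; adjusted p = 0.0461), and at 2.72 to 14.2 CPM in the other 6 libraries. Its adjusted p was 0.136 with limma-voom, 0.0504 in the fit of only the 6 libraries and 0.0723 with a term for the low-total libraries. Hbb-bt was at 0, 0.0706 and 0 CPM against 1.18, 0.147 and 1.66 CPM (adjusted p = 0.0949). Hbb-b1 was higher in the controls, at 21.7, 35.2 and 25.8 CPM against 17, 19.8 and 9.28 CPM (log2 fold change -0.84 ± 0.26, adjusted p = 0.144), and at 7.71 to 14.3 CPM in the other 6 libraries. The alpha globin gene Hba-a1 was at 36.8, 35.6 and 29.2 CPM against 40.7, 22 and 37.4 CPM, with overlapping groups (-0.02 ± 0.36, adjusted p = 0.99). Whether the control_5NC animals differed from the others in genetic background was not tested. Trim6, an antiviral ubiquitin ligase 391 kb from Hbb-bs, was at 3.08, 3.11 and 2.95 CPM against 6.77, 7.42 and 8.82 CPM (1.33 ± 0.24, adjusted p = 0.0353), and reached 9.6 to 11.4 CPM in control_3NC. It was the 1 called of 10 tested ubiquitin ligase genes of that region.

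Of 16 tested genes of secreted liver proteins, all but a few of them low in testis, Alb and Serpina3k rose. Over all tested genes 0.256% rose. Alb, serum albumin, was at 0.0628, 0.0706 and 0.144 CPM in control_5NC and 2.89, 3.45 and 6.1 CPM in overexpression (ratio 45.8, 17.6 to 170; adjusted p = 0.000854). Control_3NC was as low as control_5NC, at 0 to 0.125 CPM, and knockdown was as high as overexpression, at 2.85 to 4.21 CPM. Alb was accordingly the gene that also passed against control_3NC (adjusted p = 0.00221). Serpina3k, a serine protease inhibitor, was at 0.0628, 0 and 0.144 CPM against 1.05, 0.661 and 0.862 CPM (ratio 12.7, 4.02 to 64.2; adjusted p = 0.0353), with control_3NC at up to 0.203 CPM and knockdown at 0.639 to 0.842 CPM. Of the 16 genes 14 lay above 0, 8 were higher at an unadjusted p under 0.05 (8.90% over all tested genes), 0 were lower, and the median was 0.84. Among those that did not pass were the haem carrier Hpx (log2 fold change 1.80 ± 0.64, adjusted p = 0.198), the protease inhibitor Serpina1b (1.16 ± 0.37, adjusted p = 0.148) and the fibrinogen chain Fgb (0.94 ± 0.30, adjusted p = 0.148). Its summed level was 58.5 to 62.2 CPM in control_5NC and 86.0 to 103 CPM in overexpression, and 69.7 to 106 CPM in the other 6 libraries, which cover the overexpression range. The 2 genes below 0 were Fga (-0.17 ± 0.84) and Apoa2 (-0.20 ± 0.41). DESeq2 gave Alb and Serpina3k no adjusted p, because their counts are low.

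Further tissue transcripts rose one by one. Pga5, a pepsinogen of the stomach, was at 0, 0.212 and 0 CPM in control_5NC and 11.3, 6.68 and 10.5 CPM in overexpression (ratio 141, 47.8 to 684; adjusted p = 0.0353), and at 8.23 to 14.4 CPM in control_3NC but 0.0639 to 2.85 CPM in knockdown. Cck, the peptide hormone cholecystokinin, was at 0, 0 and 0.0719 CPM against 2.5, 1.47 and 4.05 CPM (ratio 119, 21.0 to 4750; adjusted p = 0.0449), with control_3NC at 0 to 0.609 CPM and knockdown at 0.383, 1.69 and 1.62 CPM, which overlaps overexpression 2. The other 4 tested genes of gut peptides and stomach enzymes were not called. Slc22a20, an organic anion transporter, was at 0.0628, 0.141 and 0.0719 CPM against 1.25, 1.54 and 2.59 CPM (ratio 19.8, 7.43 to 74.4; adjusted p = 0.0449). With limma-voom the adjusted p was 0.103 for Pga5, 0.0517 for Cck and 0.0686 for Slc22a20. With a term for the low-total libraries it was 0.0845, 0.0894 and 0.0741.

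Cyp21a1, steroid 21-hydroxylase, is an adrenal enzyme. It was at 5.22, 5.65 and 4.6 CPM in control_5NC and 16.3, 11.9 and 12.9 CPM in overexpression (1.41 ± 0.18, adjusted p = 0.0089). Control_3NC lay with control_5NC at 5.63 to 5.84 CPM and knockdown with overexpression at 8.69 to 12.9 CPM. The other 5 tested genes of the adrenal list were not called, among them Chga of the medulla (0.39 ± 0.23, adjusted p = 0.461), and among 22 Leydig cell and steroid enzyme genes Cyp21a1 was the 1 called. A pair of genes of the skeletal muscle list also rose, as did 0.256% of all tested genes. Ryr1, the calcium release channel of muscle, was at 6.03, 5.79 and 4.46 CPM against 17.9, 10.9 and 19.3 CPM (1.56 ± 0.28, adjusted p = 0.0353), and Xirp1, an actin-binding protein of striated muscle, at 2.58, 2.19 and 1.65 CPM against 6.31, 4.04 and 5.5 CPM (1.30 ± 0.23, adjusted p = 0.0331). The defining muscle genes Ckm and Acta1 stayed at or under 1.01 CPM in all 6 libraries, and Actn2 (0.65 ± 0.16, adjusted p = 0.0907) and Actn3 (0.72 ± 0.20, adjusted p = 0.11), alpha-actinins of the sarcomere, had values above 0 without passing. Of 17 tested genes of the list 10 lay above 0 (48% of all tested genes did), with a median of 0.21. At an unadjusted p under 0.05, 4 were higher and 0 lower (8.90% and 6.39% over all tested genes).

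Dchs1, a giant cadherin of planar cell polarity, had the third smallest adjusted p of the rises. It was at 5.4, 5.22 and 5.39 CPM in control_5NC and 26, 20.6 and 30.5 CPM in overexpression (2.27 ± 0.21, adjusted p = 0.000562), while control_3NC held 12.6 to 22.4 CPM and knockdown 12.6 to 14.7 CPM. The controls agreed to a narrow range and every other library was above it. Dchs1 was the 1 called of 39 tested genes of cell-cell and cell-matrix adhesion, whose median was -0.02. Cst9, a cystatin of Sertoli cells also called testatin, was at 8.04, 11.8 and 10.4 CPM against 49.1, 45.5 and 45.8 CPM (2.22 ± 0.38, adjusted p = 0.0449), with 22.9 to 73.7 CPM in the other 6 libraries. It was the 1 called of 30 Sertoli cell genes, whose median was 0.00. Gtf2ird2, a general transcription factor relative, was at 4.34, 4.38 and 3.74 CPM against 17.7, 18.4 and 11.3 CPM (1.92 ± 0.23, adjusted p = 0.00667), and at 14.9 to 23.4 CPM elsewhere.

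**Figure D4:**
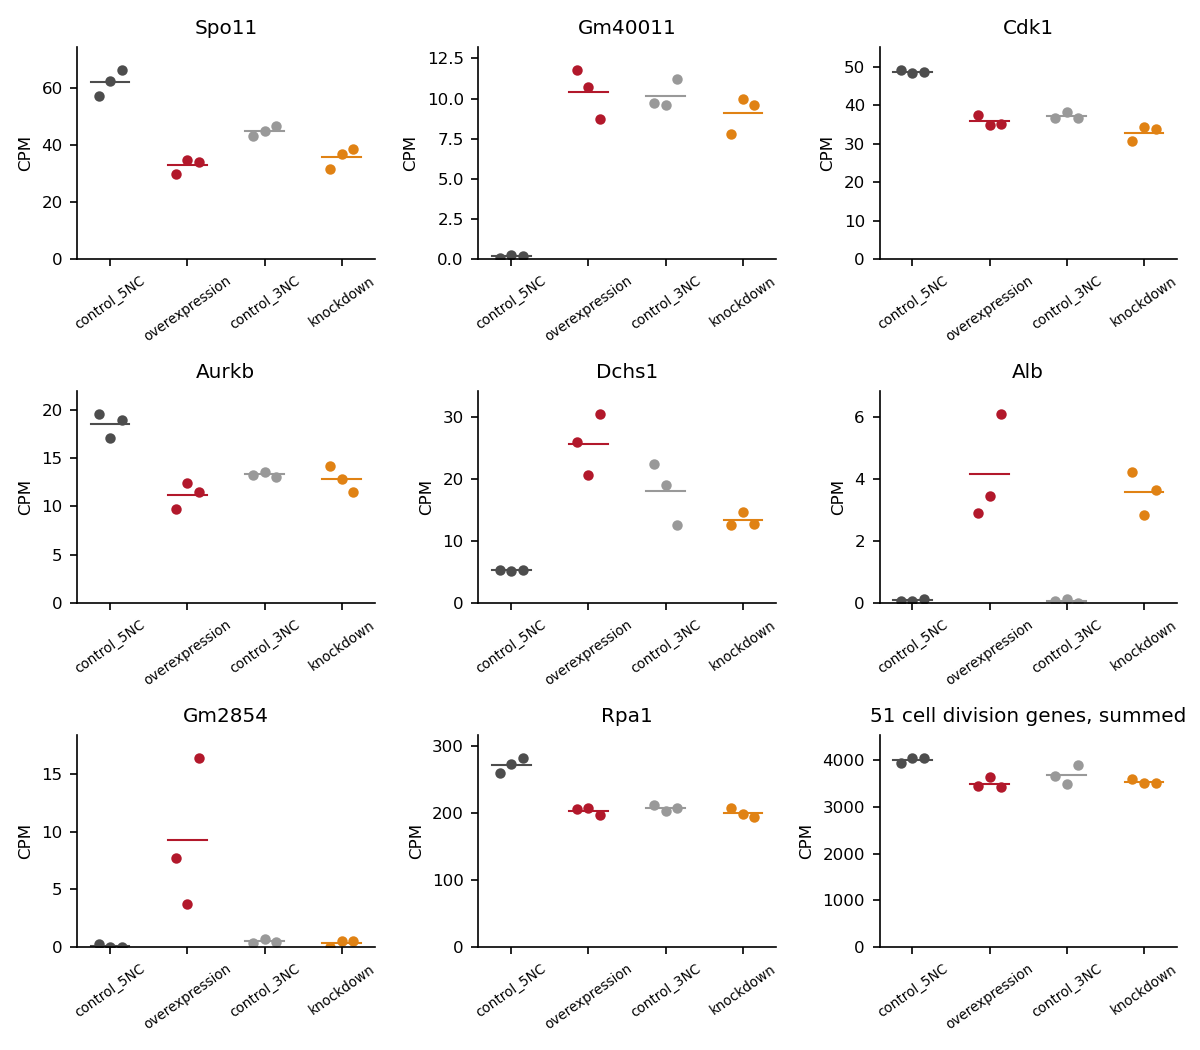
Level in CPM (vertical axes, from 0) of 8 called genes and of the 51 cell division genes summed, in each of the 12 libraries, with a bar at the group mean. In Gm40011, Rpa1 and Dchs1 only control_5NC lies apart, in Alb control_3NC lies with control_5NC, and in Gm2854 only overexpression lies apart.

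Called genes were placed on the genome with RefSeq positions on GRCm38.p6. Of 77 called genes with a position, 19 (24.7%) lay within 1 Mb of another called gene, against 9.67% of all tested genes that lay within 1 Mb of a called gene. Of 10 such pairs 7 moved in the same direction and 3 in opposite ones. Those in opposite directions begin with Spo11 (chr2:172977379-172993576), which fell, lies 89.2 kb from Gm40011, which rose, and Cep250, which fell, lies 363 kb from Gss on the same chromosome, which rose. Aurkb, which fell, and Tmem95, which rose, lie 824 kb apart on chromosome 11. Of the pairs that moved together, Tcp10a and Tagap, 580 kb apart on chromosome 17, both fell. Antxrl and A630023A22Rik overlap on chromosome 14, and both have shared counts. Antxrl, an anthrax toxin receptor relative, was at 95.7, 87.1 and 90.8 CPM against 161, 132 and 184 CPM (0.80 ± 0.12, adjusted p = 0.0168), and A630023A22Rik at 1.07, 1.13 and 1.01 CPM against 4.66, 2.42 and 5.37 CPM (1.95 ± 0.30, adjusted p = 0.0184). Without a stated strand their reads cannot be told apart, and the order of their overexpression libraries is the same.

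The somatic and spermatogonial lists held few calls. Spermatogonia (25 tested, median -0.03), peritubular and smooth muscle (18, -0.10), endothelium (18, 0.07), macrophages and leukocytes (23, 0.00) and the piRNA pathway (25, 0.01) had 0 called, with 0 to 2 members at an unadjusted p under 0.05 in either direction. Interferon response genes had a median of -0.37 with 0 called and 0 at an unadjusted p under 0.05 in either direction, and their summed level was 133.9, 263.5 and 184.2 CPM in control_5NC and 108.7, 131.7 and 150.1 CPM in overexpression. The epididymis and rete testis list had the lowest median, -1.06 over 13 tested genes, with 0 called. Its sum was 593.5 and 398.4 CPM in control_5NC 2 and 3, against 283.2 CPM in control_5NC 1 and 271.3 to 310 CPM in overexpression, so 2 control libraries carried it. Adipose tissue genes had a median of 0.34 with 0 of 15 called, and their sum was 1179 to 1285 CPM in control_5NC and 1396 to 1657 CPM in overexpression. Control_3NC and knockdown libraries held 1325 to 1600 CPM, all above control_5NC.

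The effect of overexpression was also set against that of knockdown, each relative to its own control, in 1 test of the difference. It passed for 3 genes (0.0183% of those tested), Gm40011, A530064D06Rik and Dchs1, and 1104 genes (6.73%) had an unadjusted p under 0.05. In all 3 the overexpression effect was large and positive, and the knockdown effect was small: -0.16 ± 0.20 for Gm40011, 0.12 ± 0.26 for A530064D06Rik and -0.43 ± 0.19 for Dchs1 on the log2 scale. As given above, control_5NC was the group that stood apart in each. For Alb, which was higher in both than in their controls, the test of the difference gave an adjusted p of 0.983.

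**Figure D5:**
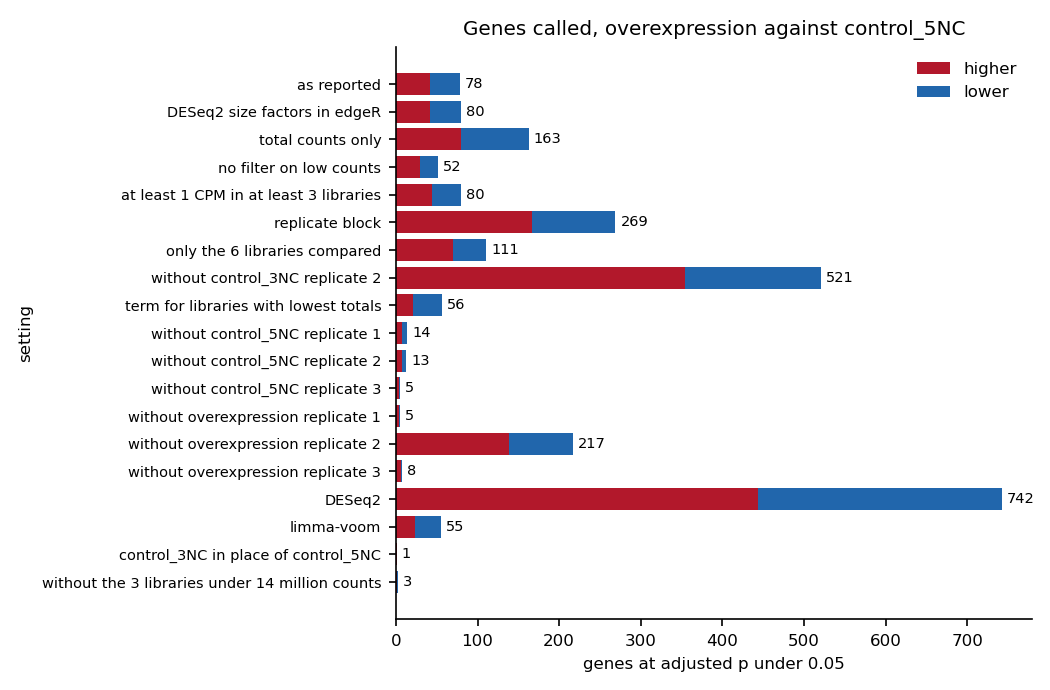
Number of genes at an adjusted p under 0.05 (horizontal axis) for overexpression against control_5NC under each way of fitting (vertical axis), split into higher (red) and lower (blue). The count is 78 as reported, 521 without control_3NC replicate 2, 742 with DESeq2, and 5 to 14 when 1 library of the comparison other than overexpression replicate 2 is left out.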

How the data were processed

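Gene-level estimated counts, per the file headers, were deposited by the authors for 12 testis libraries, on build mm10 (submitters' processing notes). Which aligner, counting program, annotation and strand setting were used is not given in the sources used here. Of the values 88.2% were whole (tolerance 1e-06); counts were rounded. A further 18 per-sample columns of 9 other samples were not used. With edgeR 4.0.16 in R 4.3.3, genes passing filterByExpr (minimum count 10) were kept, 16395 of 20788, leaving out 0.0707% of counts. One quasi-likelihood model of 4 group means with TMM scaling was fitted over all 12 libraries, and p-values were adjusted by Benjamini-Hochberg over all genes tested at a threshold of 0.05. SE was taken as the size of the fitted log2 fold change divided by the square root of the F statistic of its test. Intervals of ratios are 95% and, like the floor of 3 counts, cover counting error only, since PCR copies were not marked by molecular identifiers. The precision rests on 13485479 to 15771655 counts per library. No libraries agreed within counting noise.

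Genes described by rule were, among those called, the 15 largest rises and 15 largest falls with a mean of at least 1 CPM in either group, the 10 most abundant, up to 3 genes a list, and genes within 1 Mb of another; others were chosen after their values were seen. The comparison, its genes and all lists were chosen with earlier results of these data known. Of 20788 identifiers 20630 matched the RefSeq table. Alternatives were DESeq2 1.42.0, limma 3.58.1 (voom), other scaling and filters, a replicate block, a term for low totals, the other control group and libraries left out. The fit behind the reported calls was tested on simulated data, and the alternatives were not.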

Additional observations from a re-analysis of the deposited data

Results flagged for a closer look

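The difference between the overexpression effect (against control_5NC) and the knockdown effect (against control_3NC) passed edgeR's quasi-likelihood test for 3 genes, which is why they are listed here. For Gm40011 the difference was 5.93 on the log2 scale (adjusted p = 2.24e-05), from an overexpression effect of 5.77 ± 0.30 and a knockdown effect of -0.16 ± 0.20. For A530064D06Rik it was 6.15 (adjusted p = 0.000403), from 6.28 ± 0.43 and 0.12 ± 0.26; the control_5NC libraries held 3 counts in all, so this fitted value depends on the prior count. For Dchs1 it was 2.69 (adjusted p = 0.00262), from 2.27 ± 0.21 and -0.43 ± 0.19. All 3 genes were higher in 9 of 9 libraries outside control_5NC than in any control_5NC library.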

How the results depend on the processing

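Against 78 genes, scaling by total counts called 163 (80 higher, 83 lower, with the median of all genes at -0.05), DESeq2 742 (444 and 298; 67 of the 78, the other 11, Alb among them, having no adjusted p there), the other control group 1, and the fit without the 3 low-total libraries, added after the data were seen, 3. Leaving out 1 library gave 5 to 521 genes: 14, 13 and 5 without control_5NC 1, 2 and 3, then 5, 217 and 8 without overexpression 1, 2 and 3, and 521 without control_3NC 2. Size factors (80), no filter (52), a filter at 1 CPM (80), only the 6 libraries (111), a term for low totals (56) and limma-voom (55) stayed within 1.5 times. The difference between the effects passed for 3 to 12 genes as each library was left out and for 53 with DESeq2. With the replicate numbers as a replicate block, 269 genes (167 higher, 102 lower) were called, all of the 78 but Hbb-bs among them, and the difference passed for 6; the correlations of same-numbered libraries were 0.21, 0.31 and -0.13, and overexpression 3 correlated best with control_5NC 1, so the numbers were not taken to pair the samples. With control_3NC in place of control_5NC, 14 log2 fold changes turned sign: Gtf2ird2 -0.22, 9830107B12Rik -0.31, A630023A22Rik -0.061, Trim6 -0.45, Rbms1 -0.068, Pga5 -0.18, Psg17 -0.14, Cst9 -0.065, Hbb-bs -1.23, Capns2 0.31, Pafah2 0.002, Zscan22 0.041, Tgm6 0.067 and Chdh 0.006. The cause of these changes was not tested. With 3 libraries a group and genes of 0 to 3 counts in control_5NC, ratios are bounded only within their wide counting intervals.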

Other observations

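Among lists not described above, 17 of 23 tested genes of cholesterol synthesis and uptake lay above 0 (48% of all tested genes did). The median was 0.17 and 0 were called. At an unadjusted p under 0.05, 2 were higher and 1 lower (8.90% and 6.39% over all tested genes). Idi1, isopentenyl-diphosphate isomerase, was at 115, 151 and 149 CPM in control_5NC and 58, 94.1 and 57.8 CPM in overexpression (log2 fold change -0.98 ± 0.27, adjusted p = 0.126), and Cyp51, lanosterol demethylase, at 99.4, 92.3 and 109 CPM against 135, 155 and 135 CPM (0.50 ± 0.13, adjusted p = 0.108). The groups of each gene were separate, and neither passed the test. The endoplasmic reticulum chaperone Hspa5 was at 668, 796 and 755 CPM against 534, 645 and 564 CPM (-0.35 ± 0.09, adjusted p = 0.103), with separate groups. Ptgds, a prostaglandin synthase, was at 36.4, 57.6 and 48.6 CPM against 111, 107 and 124 CPM (1.26 ± 0.32, adjusted p = 0.11), also with separate groups. In the histone and DNA modifier list 0 of 33 were called, with the demethylase Kdm4d at -0.36 ± 0.09 (adjusted p = 0.096) and the deacetylase Hdac11 at 0.61 ± 0.16 (adjusted p = 0.103).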
